A study of Homo sapiens with 10 samples.

Results

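The alpha-globin and beta-globin gene clusters were examined through the nucleosome positions of human induced pluripotent stem cells (hiPSCs). Each cluster ran from its first to its last listed gene with 20 kb added on each side. The alpha cluster was bounded by HBZ and HBA1, with HBA2 between them, and covered chr16:132644-197522 of GRCh38, or 64.9 kb. The beta cluster was bounded by HBB and HBE1, with HBD between them, and covered chr11:5205464-5289945, or 84.5 kb. The alpha cluster held 297 positions and the beta cluster 368, which together made 665 of the 12921589 positions of the whole list, or 0.00515%.

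The cells were undifferentiated hiPSCs of the single line PB010.5, which carries a FUCCI cell cycle reporter in the EEF2 locus. Native chromatin was digested for 5 min with micrococcal nuclease (MNase), an enzyme that cuts the linker DNA between nucleosomes, at 5 amounts of which 0.5 U was the lowest and 10 U the highest, with 1 U, 3 U and 6 U between them, and yeast mononucleosomal DNA was added to every library as a spike-in. There was 1 library per amount of enzyme, and each was sequenced with 150-bp and with 50-bp reads, which gave 10 samples from 5 libraries. A single pooled list of positions was analysed, so no value belongs to one enzyme amount, no replicate error exists and the reads behind a score are unknown; windows of similar GC content elsewhere on the same chromosome show the spread instead.

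Haemoglobin joins chains of the alpha family with chains of the beta family around a haem group that binds oxygen. HBZ and HBE1 encode the zeta and epsilon chains of the embryo, HBG1 and HBG2 the gamma chains of the fetus, and HBA1, HBA2, HBB and HBD the alpha, beta and delta chains of adult blood. Transcription of both clusters is a property of red cell precursors, and pluripotent cells are outside that lineage; whether the genes were transcribed here was not measured.

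Several of these genes are near copies of each other, and short reads from a copied stretch have more than one possible origin. The first 60 coding bases of exon 2 show the degree of likeness. In HBA2, HBA1, HBG2 and HBG1 they lie inside the stretches without positions described below, and in HBD and HBB positions cover them. They were read from the GRCh38 reference in the direction of transcription, at chr16:173125-173184 in HBA2 and chr16:176929-176988 in HBA1, both on the forward strand. At these 60 bases the genes HBA2 and HBA1 differed at 0 bases.
HBA2 and HBA1: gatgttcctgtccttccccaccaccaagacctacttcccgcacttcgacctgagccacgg
The same stretch of HBG2, at chr11:5254455-5254514, and of HBG1, at chr11:5249531-5249590, both on the reverse strand, also differed at 0 bases.
HBG2 and HBG1: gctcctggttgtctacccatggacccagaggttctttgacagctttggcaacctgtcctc
HBD, at chr11:5234154-5234213, and HBB, at chr11:5226740-5226799, both on the reverse strand, differed at 4 of the 60 bases, which are given in capitals.
HBD: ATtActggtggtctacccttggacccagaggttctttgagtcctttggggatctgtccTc
HBB: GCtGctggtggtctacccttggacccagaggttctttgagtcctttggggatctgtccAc
Over the whole canonical transcripts, introns included, HBA2 and HBA1 were 96.6% identical, HBG2 and HBG1 97.8%, and HBD and HBB 66.9%.

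To measure how far this reaches, a base was counted as unique when the 50 bases centred on it occur once in the reference on either strand. Unique bases made up 81.7% of the alpha cluster and 90.9% of the beta cluster. Over the transcripts the share was 41.7% in HBZ, 28.7% in HBA2 and 29.4% in HBA1, against 98.7% in HBB, 98.7% in HBD and 100% in HBE1. The listed alpha genes were thus largely copied sequence at this length, and the listed beta genes were not. The share at the length of the 150-bp reads was not computed.

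The RefSeq table of promoters for GRCh38.p14 held 1 of the 6 listed genes, HBD, and 1 other globin gene, HBM, the mu gene of the alpha cluster. They are printed as the pair that shows a GC-poor and a GC-rich globin promoter. Both give the 250 bases before the start site in the direction of transcription, with capitals for matches on either strand to a CCAAT box, to the box CACCC, to the TATA-like letters ATAAA and to the letters GATAA that GATA factors bind.
HBD, chr11:5234484-5234733, reverse strand: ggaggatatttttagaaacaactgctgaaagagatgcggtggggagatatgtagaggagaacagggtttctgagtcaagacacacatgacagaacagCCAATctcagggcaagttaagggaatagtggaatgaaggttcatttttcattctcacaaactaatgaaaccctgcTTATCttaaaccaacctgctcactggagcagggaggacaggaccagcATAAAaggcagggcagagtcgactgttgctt
HBM, chr16:165728-165977, forward strand: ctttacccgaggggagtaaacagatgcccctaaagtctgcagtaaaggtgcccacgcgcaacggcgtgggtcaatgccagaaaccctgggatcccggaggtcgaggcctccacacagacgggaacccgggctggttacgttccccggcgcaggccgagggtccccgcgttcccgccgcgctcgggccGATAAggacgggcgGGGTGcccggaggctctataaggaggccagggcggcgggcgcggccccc
The HBD stretch had 45.2% GC and 2 CpG dinucleotides, and the HBM stretch 69.2% GC and 27. In HBD, CCAAT began 153 bases before the start, GATAA lay on the opposite strand from 78 bases before it, and ATAAA began 31 bases before it. HBM held GATAA from 63 bases before the start and CACCC on the opposite strand from 49 bases before it. Among the same 250 bases of 22198 promoters of protein-coding genes, 32.7% held CCAAT, 58.4% CACCC, 27% ATAAA and 16.8% GATAA on either strand. None of the matches in the printed promoters overlapped another.

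The alpha cluster was GC-rich, with 54.1% GC, and the beta cluster GC-poor, with 39.0%. In spite of this difference their densities were close, with 4.58 positions per kb in the alpha and 4.36 in the beta cluster, a ratio of 1.05. The ratio differed from 1 by less than the spread of 0.125 that the windows gave. Taken alone, the windows that match the clusters in GC content differed more, with a median of 5.55 positions per kb for the 78 windows of chromosome 16 and 4.65 for the 531 windows of chromosome 11, a ratio of 1.19.

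The score, the height of the signal that the authors' workflow gave each position, separated the clusters more clearly. The median score was 18.5 in the alpha cluster (middle 50% of positions from 12.3 to 24.7) and 12.3 in the beta cluster (9.87 to 17.3). The scores are multiples of a step of 1.23, so these medians were 15 and 10 steps. The difference of 6.17 was larger than the spread of 1.75 from the windows. Of the alpha positions 207, or 69.7%, reached the median of the whole list, 14.8, and of the beta positions 155, or 42.1%. Among all positions of the chromosomes, 40.8% of those on chromosome 16 and 46.2% of those on chromosome 11 lay below this value. The matched windows had medians of 19.7 and 13.6, which differed by 6.17 as well.

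Neighbouring midpoints lay a median of 180 bp apart in the alpha cluster (middle 50% from 130 to 230 bp) and 190 bp in the beta cluster (135 to 250 bp). The difference of 10 bp was smaller than the spread of 20.1 bp. The means, 219 and 229 bp, were larger than the medians in both, since a small number of wide distances entered them.

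**Figure D1:**
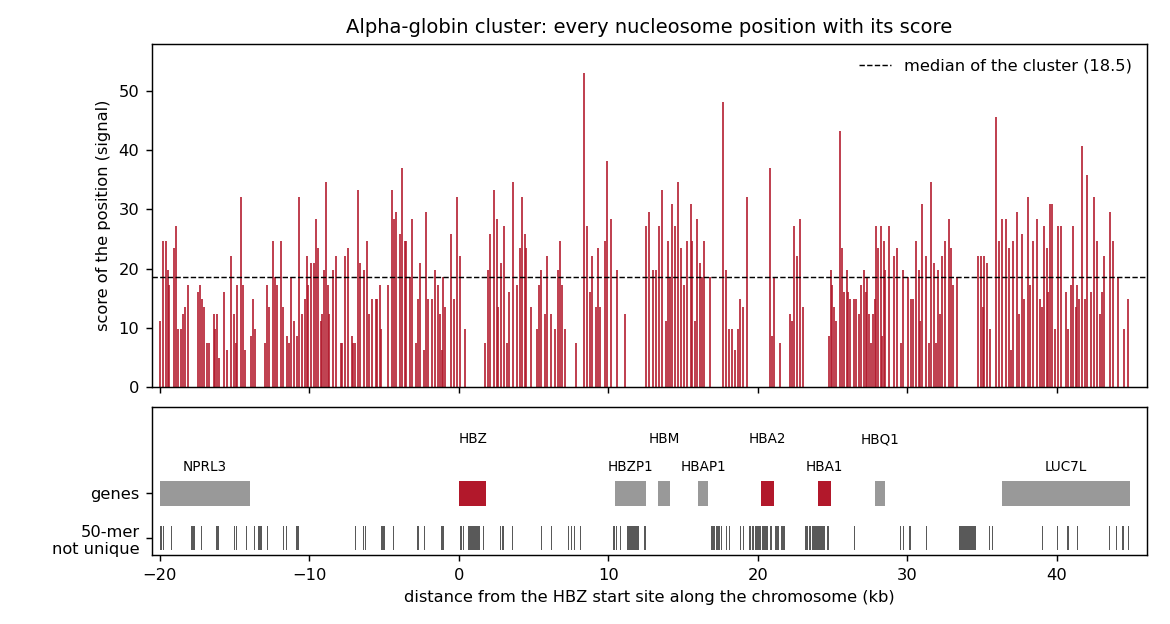
Each vertical line is 1 position of the alpha cluster at its distance in kb from the HBZ start site, and its height is the score. The lower strip shows genes, with the listed ones in red, and the bases whose 50-mer is not unique in dark grey. Lines are absent over most of HBA2 and HBA1 and over a long inner part of HBZ, where the grey strip is dense.

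Against windows of its own length and GC content, within 2 percentage points, the alpha cluster was sparse. Its 4.58 positions per kb were 0.97 below the median of the 78 windows, 13 of which were sparser and 65 denser. The windows reached from 0 to 5.92 per kb, and those near 0 were almost wholly copied sequence. Among the 64 windows with at least 80% unique bases, the density ran from 4.75 to 5.92 with an SD of 0.232, so that the cluster lay below each of them. It also had fewer unique bases than most, 81.7% against a median of 93.7%.

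When positions were counted only at unique bases, the alpha cluster had 5.11 per kb and the windows a median of 5.55, and the difference shrank to 0.44. The rank of the cluster stayed the same, with 13 of the 78 windows sparser and 65 denser. Just 3 windows of chromosome 16 matched the cluster in GC content and, within 5 percentage points, in unique bases. They had 4.52 to 5.16 positions per kb, a range that holds the value of the cluster. The difference of 0.97 is per kb of all bases and that of 0.44 per kb of unique bases, so the second is not a part of the first.

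The beta cluster lay closer to its windows. Its 4.36 positions per kb were 0.30 below the median of 4.65, with 138 of 531 windows sparser and 390 denser. The SD over the 470 windows with at least 80% unique bases was 0.467, larger than the difference. Counted at unique bases, the cluster had 4.54 per kb and the windows 4.74. With 262 windows that also matched its share of unique bases the median was 4.63, and 208 of them were denser.

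**Figure D2:**
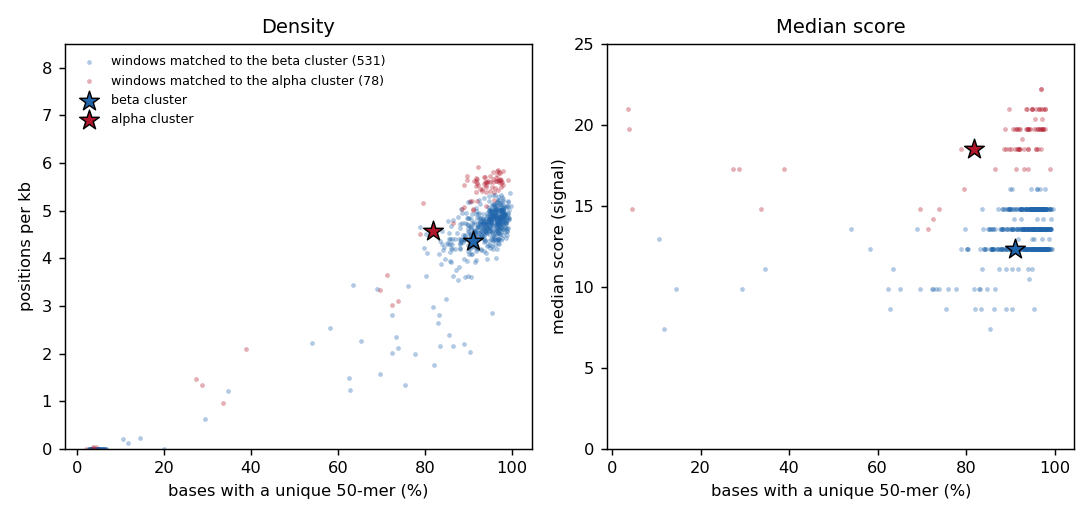
Each small point is a window of the length and GC content of a cluster on its own chromosome, and the stars are the clusters. The horizontal axis gives the percentage of bases with a unique 50-mer, and the vertical axes give positions per kb (left) and the median score (right). In both sets, windows with few unique bases had few positions, and the alpha star at 81.7% lies left of most windows of its set.

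In the spacing of the alpha cluster the wide distances stood out most. The median of 180 bp stood 10 bp above the window median of 170 bp. Distances of 300 bp or more made up 11.8% of the 296 distances, against a median of 6.31% over the windows, and 65 windows had a smaller share. Distances from 140 to under 210 bp, near the length of a nucleosome with its linker, made up 35.8% of those in the cluster and 41.2% of all those in the windows. Distances under 140 bp, at which neighbouring intervals overlap, made up 29.4% and 30.4%.

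In the beta cluster the median of 190 bp was also 10 bp above that of its windows, within the SD of 19.4 bp. Distances of 300 bp or more made up 17.7% of 367, against a median of 15.4% over the windows. Distances from 140 to under 210 bp made up 33.8%, against 36.5% of all those in the windows.

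**Figure D3:**
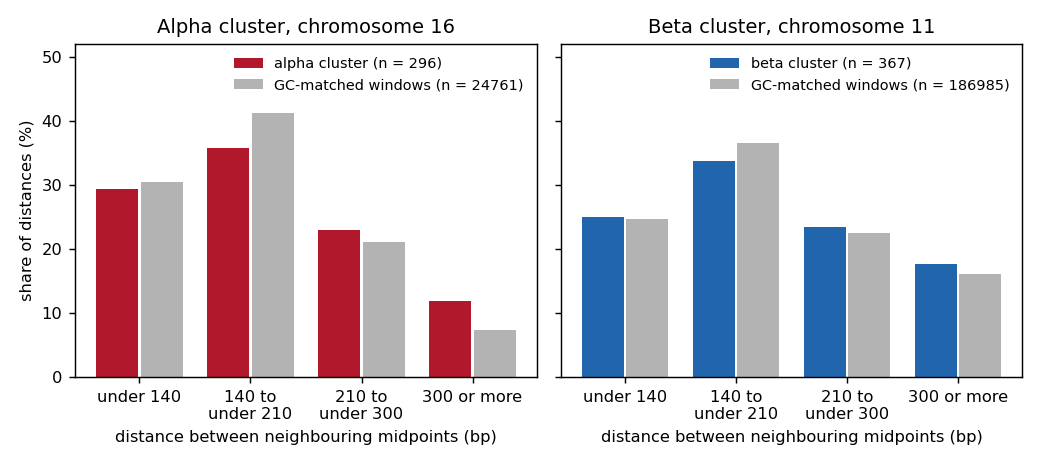
Bars give the percentage of distances between neighbouring midpoints in 4 bands, for each cluster (colour) and for all of its GC-matched windows together (grey). The alpha cluster shows 11.8% of distances at 300 bp or more beside 7.37% in its windows, and the beta cluster 17.7% beside 16.1%.

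The scores of both clusters lay 1 step, 1.23, below the medians of their windows. Of the alpha windows 44 had a higher median, 18 an equal and 15 a lower one, and of the beta windows 284, 172 and 36. The SD over windows with at least 80% unique bases was 1.18 in the alpha and 1.29 in the beta set, so that the alpha difference barely exceeded its spread and the beta difference lay within it. With the 3 windows that also matched in unique bases, the alpha cluster was instead 1.23 above the median.

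Score rose with GC content inside both clusters. In the beta cluster the mean score was 7.87 ± 1.80 (SD over 16 positions) at 20 to 30% GC, 12.1 ± 5.05 (168 positions) at 30 to 40%, 15.6 ± 6.15 (139 positions) at 40 to 50% and 18.7 ± 7.85 (45 positions) at 50 to 60%, with GC taken over a stretch of nucleosome length around the midpoint. In the alpha cluster it was 15.0 ± 5.28 (24 positions) at 30 to 40%, 18.0 ± 7.67 (78 positions) at 40 to 50%, 19.5 ± 8.12 (134 positions) at 50 to 60% and 23.3 ± 9.50 (43 positions) at 60 to 70%. The rise stopped at the highest GC, with 19.8 ± 9.50 for the 17 alpha positions above 70%. Across positions of 1 cluster, which share libraries and are not independent, Spearman's rho between GC and score was 0.27 over 297 alpha and 0.44 over 368 beta positions.

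Set beside positions of the same chromosome with the same GC content, the alpha positions had a mean score of 19.3 where 19.5 would follow from their GC, a ratio of 0.986. The beta positions had 14.0 where 14.8 would follow, a ratio of 0.946. Of the alpha positions 45.5% were above the mean of their GC, where 45.8% of positions of the same GC elsewhere on chromosome 16 were. Of the beta positions 37.5% were, and 44.3% of such positions elsewhere on chromosome 11.

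**Figure D4:**
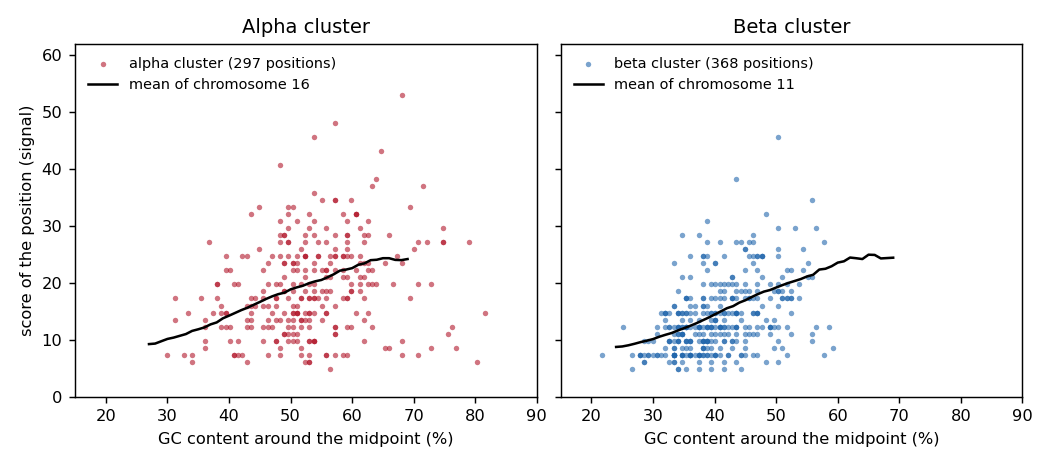
Each point is 1 position, with the GC content around its midpoint on the horizontal axis and its score on the vertical axis. The black line is the mean score of all positions of the same chromosome in each percentage point of GC that held at least 1000 positions. Alpha points lie farther right and higher than beta points, and both clouds spread around the line of their chromosome.

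Without the flanks the order of the 2 clusters in density was the reverse. In the alpha cluster the 24.9 kb from HBZ to HBA1 held 87 positions, or 3.50 per kb, between flanks of 5.35 and 5.15 per kb. This span had 59.0% GC and 72.2% unique bases, and at unique bases its density was 4.23 per kb, still below the 5.54 and 5.60 of the flanks. In the beta cluster the 44.5 kb from HBB to HBE1 held 189 positions, or 4.25 per kb. The flank beyond HBB had 3.80 per kb and 80.7% unique bases, and the flank beyond HBE1, on the side where the locus control region of the beta cluster is known to lie, 5.15 per kb and 98.2%. The alpha span was 0.823 times as dense as the beta span. At unique bases the beta span had 4.39 per kb and the ratio was 0.964, which differed from 1 by less than the spread of 0.125. That spread comes from densities over all bases in windows as long as the clusters with their flanks, not as the spans. The median score of the alpha span, 19.7, remained above the 12.3 of the beta span.

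The 6 listed transcripts differed between clusters in the same direction. HBZ, HBA2 and HBA1 together held 8 midpoints in 3.54 kb, or 2.26 per kb, and HBB, HBD and HBE1 held 21 in 4.86 kb, or 4.33 per kb. The alpha genes had 35.7% unique bases, with 4 midpoints there or 3.17 per unique kb, and the beta genes 99.1%, with all 21 or 4.36 per unique kb. These are counts of a handful of positions from 1 list, and no error can be attached to them.

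HBZ, the embryonic alpha-like gene (chr16:152644-154503, forward strand, 1860 bases), held 3 midpoints. The nearest midpoint upstream lay 93 bases before the start site, with a score of 32.1 that was higher than 94.9% of the positions of chromosome 16. The nearest downstream lay 107 bases after the start in the 5′ untranslated region with a score of 22.2, so that the midpoints were 200 bp apart and the start site fell between their intervals. The remaining scores were low, 9.87 at 397 bases over the edge of a coding exon and its intron, and 7.40 at 1737 bases over the last coding bases and the 3′ end. Between these last positions the bases from 468 to 1667 after the start were uncovered, 245 of them coding, and 28.3% of that stretch was unique.

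HBA2, the more upstream of the adult alpha genes (chr16:172876-173710, forward strand, 835 bases), had its nearest midpoints 975 bases before and 605 bases after the start, 1580 bp apart. The upstream one had a score of 32.1. Over the gene lay 3 positions, with scores of 37.0 at 605 bases, 8.64 at 705 bases and 18.5 at 825 bases. The score of 37.0, over the junction of coding and intron bases, was the highest over any of the 3 listed alpha genes and exceeded 98% of the positions of chromosome 16, although 35.7% of its bases were unique. The uncovered stretch ran from 904 bases before to 535 bases after the start, and so took in the promoter and 300 coding bases.

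HBA1, its near copy (chr16:176680-177522, forward strand, 843 bases), had its nearest midpoints 1014 bases before and 731 bases after the start, with scores of 13.6 and 8.64. The distance of 1745 bp between them was the widest of the alpha cluster. Over the gene lay 2 positions, 8.64 at 731 bases and 19.7 at 831 bases, both touching the 3′ untranslated region. The uncovered stretch ran from 943 bases before to 661 bases after the start. The 2 alpha genes thus lacked positions over nearly the same part of their sequence, 68.5% GC in both, of which 18.1% was unique at HBA2 and 22.2% at HBA1.

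Among the other globin genes and pseudogenes of the alpha cluster, those that were unique throughout held more midpoints per kb than HBZP1, which was not. HBM (chr16:165978-166764) was unique throughout and held 5 midpoints, with scores from 11.1 to 33.3 over the gene. Its start site lay 33 bases from the midpoint of a position with a score of 27.1 that reached 36 bases into the GC-rich promoter printed above, and a second position, 19.7, was centred 137 bases before the start. HBQ1 (chr16:180459-181179), the theta gene beyond HBA1, was also unique throughout and had the highest density of the globin genes, 6 midpoints or 8.32 per kb. One of these was centred 2 bases from its start site with a score of 14.8. The pseudogene HBZP1, with 51.6% unique bases, held 3 midpoints in 2035 bases, while the unique pseudogene HBAP1 held 3 in 656. At its unique bases HBZP1 held 1 midpoint, or 0.95 per kb against 1.47 over all of its bases. An uncovered stretch of 450 bases inside HBZP1 was 90.9% unique.

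**Figure D5:**
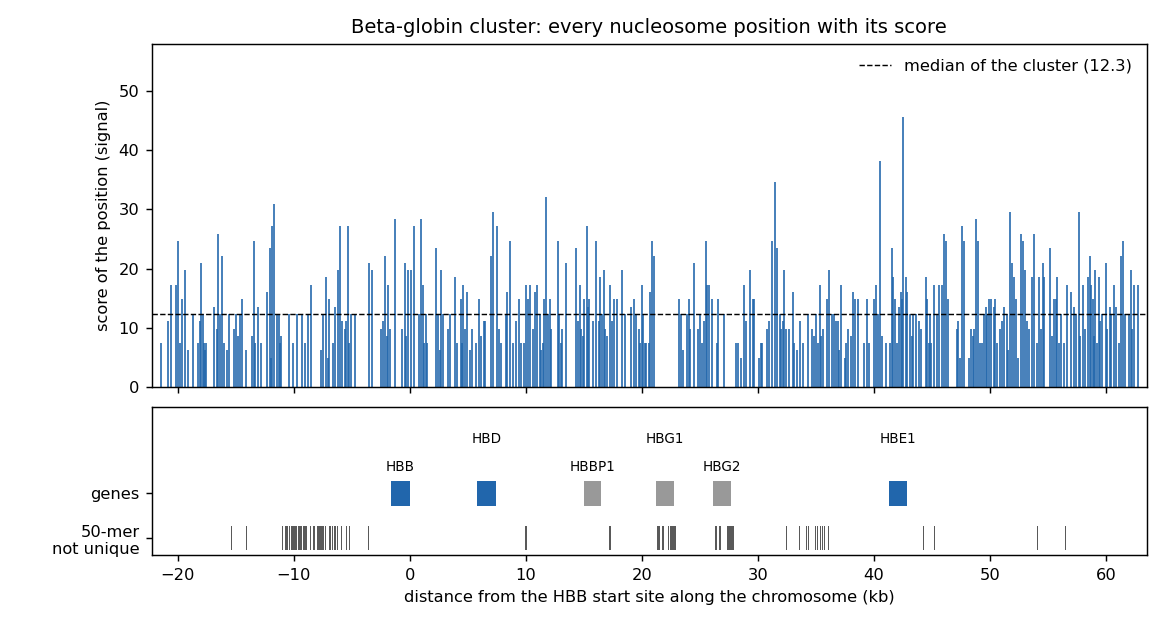
Each vertical line is 1 position of the beta cluster at its distance in kb from the HBB start site along the chromosome, and its height is the score. The lower strip shows genes, with the listed ones in blue, and the bases whose 50-mer is not unique in dark grey. Positions cover HBB, HBD and HBE1, while HBG1 has none and the tallest line stands in HBE1.

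HBE1, the embryonic gene of the beta cluster (chr11:5268345-5269945, reverse strand, 1601 bases), was the most densely covered of the listed genes, with 10 midpoints or 6.25 per kb. A position with a score of 13 steps was centred 11 bases before the start site and covered it. The next lay 144 bases after the start with 18.5. The following position, centred 344 bases after the start and wholly inside coding sequence, had a score of 45.7, which was 37 steps, the highest of the beta cluster and above 99.7% of the positions of chromosome 11. The other 8 positions over the gene had scores between 7.40 and 23.4.

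The sequence under that position is shown as the strongest of the beta cluster, at chr11:5269532-5269671 on the forward strand, with the base at the midpoint in capitals.
HBE1 exon position: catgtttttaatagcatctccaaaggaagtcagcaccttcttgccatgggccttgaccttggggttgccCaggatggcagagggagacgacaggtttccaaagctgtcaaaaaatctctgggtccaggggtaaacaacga
It had 50.3% GC and was unique throughout. The neighbouring midpoints lay 110 and 200 bp away.

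HBD, the delta gene (chr11:5232838-5234483, reverse strand, 1646 bases), held 6 midpoints. The nearest midpoint upstream was 68 bases before the start with a score of 27.1, and its interval ended just past the start site, so that it lay over the ATAAA and GATAA letters of the printed promoter. The nearest downstream was 272 bases after the start with 29.6, the highest over the gene, and the next at 402 bases had 22.2. These 3 positions at the 5′ end were all above the 5 others over the gene, which had 7.40 to 14.8. The distance across the start, 340 bp, was the widest of the listed beta genes.

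HBB, the adult beta gene (chr11:5225464-5227071, reverse strand, 1608 bases), held 5 midpoints, 3.11 per kb. The nearest midpoints to the start lay 140 bases before and 170 bases after it, both with a score of 19.7, higher than 69.5% of the positions of chromosome 11. Further into the gene the scores were 8.64 at 285 bases, 21.0 at 390 bases, 9.87 at 650 bases and 28.4 at 1300 bases. The last, over the end of the second intron and the start of the last coding exon, was the highest. From 720 to 1229 bases after the start an uncovered stretch of 510 bases lay wholly in an intron, with 26.5% GC and 100% unique bases.

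Across the 3 listed beta genes, positions over mostly coding sequence and those over mostly intron had different levels. The 10 positions with at least 70 of 140 coding bases had scores of 20.6 ± 11.1 (SD) with 51.5% ± 3.57 GC. The 11 with at least 70 intron bases had 14.5 ± 6.07 with 37.5% ± 6.64 GC. The ranges, 7.40 to 45.7 and 7.40 to 28.4, overlapped. GC content moved with the score here, and its part in the difference was not tested.

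The fetal genes HBG1 and HBG2 held fewer midpoints per kb of all bases than the listed beta genes. HBG1 (chr11:5248269-5249857) held 0 midpoints, and no interval overlapped it. Its nearest midpoints lay 424 bases before and 1736 bases after the start site, with scores of 14.8 and 22.2. HBG2 (chr11:5253188-5254781) held 3, with scores of 7.40, 12.3 and 14.8, all more than 500 bases after the start. Both had uncovered starts, from 354 bases before to 1665 bases after it in HBG1 and from 340 before to 529 after in HBG2. Unique bases made up 47.6% of HBG1 and 47.7% of HBG2. At unique bases HBG1 still held 0 midpoints. HBG2 held 3.94 per kb there, above the 3.15 of HBB and 3.69 of HBD and below the 6.25 of HBE1. The pseudogene HBBP1, unique throughout, held 8 midpoints in 1418 bases.

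Over the start sites of the 6 listed genes, the distance between the flanking midpoints ordered them as HBE1 with 155 bp, HBZ with 200 bp, HBB with 310 bp, HBD with 340 bp, HBA2 with 1580 bp and HBA1 with 1745 bp. The 250 bases before to 50 after the start were 16.7% unique in HBA2 and HBA1 and at least 98.3% unique in the other 4. The same stretch had 78.3% GC in HBA2 and HBA1, with a CpG observed-to-expected ratio of 0.79 in each, and 44.7 to 57.7% GC with ratios of 0.05 to 0.20 in the other 4. Other globin starts combined these features differently. HBM and HBQ1 had 69.3% and 69.7% GC with ratios of 0.92 and 1.02, were 100% unique and had midpoints 170 and 110 bp apart. HBG2 and HBG1 had 50.0% GC with ratios of 0.27, were 17.3% unique and had midpoints 1010 and 2160 bp apart.

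The 5 widest distances of the alpha cluster were all over genes with largely copied bases. After HBA1 and HBA2, distances of 1420 bp, 1350 bp and 1340 bp lay over the gene ENSG00000268836, HBZP1 and HBZ, where the uncovered bases were 10.5%, 28.6% and 28.3% unique. In all, 13 distances of 500 bp or more took up 19.5% of the cluster. Inside them 43.1% of bases were unique, and outside them 91.0%.

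In the beta cluster 18 distances of 500 bp or more took up 16.5% of the cluster, with 79.4% unique bases inside and 93.2% outside. The widest, 2160 bp over HBG1, was 49% unique, and the third, 1010 bp over the start of HBG2, 26.9%. The second, 1170 bp, was of another kind: it lay in the flank beyond HBB over no canonical transcript, at chr11:5222422-5223451. It had 100% unique bases and 26.9% GC. Several of the next widest, of 900, 780, 750, 720 and 650 bp, were likewise fully unique with 26.5 to 32.3% GC.

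The highest score of the alpha cluster was 53.1, or 43 steps, above 99.9% of the positions of chromosome 16. It stood between the canonical transcripts of HBZ and HBZP1 and overlapped none, although the longer gene record of HBM spans it. It lay 510 bp after its neighbour on one side and 240 bp before the other. Its bases are shown as the strongest of both clusters, at chr16:160942-161081 on the forward strand, with the base at the midpoint in capitals.
Alpha cluster, highest: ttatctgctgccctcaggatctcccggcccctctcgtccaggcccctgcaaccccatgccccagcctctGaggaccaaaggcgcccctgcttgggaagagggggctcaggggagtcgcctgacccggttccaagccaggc
This position had 68.0% GC and was unique throughout. The lowest score in both clusters was 4.94, or 4 steps. A single alpha position had it, over NPRL3, a gene of the flank, with 56.5% GC and 76.4% unique bases. In the beta cluster 8 positions shared it, 1 of them 110 and 120 bp from its neighbours in the flank beyond HBB.

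The other protein-coding genes that overlap the clusters gave a local comparison. NPRL3, whose 6030 bases inside the alpha cluster were 83.9% unique, had 5.14 midpoints per kb and a median score of 13.6. LUC7L, with 8533 bases and 93.4% unique, had 5.04 per kb and 22.2. These densities were above those of HBZ, HBA2 and HBA1 and below those of HBM and HBQ1. At unique bases NPRL3 and LUC7L both had 5.14 per kb, HBZ 1.29, HBA2 4.17 and HBA1 8.06, the last 3 from at most 2 midpoints each. In the beta cluster the readthrough gene ENSG00000239920, which overlaps HBG2, HBE1 and the flank beyond it, had 4.84 per kb over 35554 bases and a median score of 12.3, equal to that of the cluster. The readthrough gene ENSG00000284931, which runs from HBG1 into HBG2 and was 71% unique, had 2.76 per kb and also 12.3.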

How the data were processed

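Nucleosome positions were taken from the single deposited list of hiPSC MNase-seq. The authors trimmed reads with Trimmomatic 0.40, mapped them against GRCh38 and ran nucMACC with a list of blacklisted regions. The treatment of reads with several possible origins, the runs that were pooled and the program that placed the positions are not given in the sources used here. Each deposited row is an interval of 140 bp with a score, a signal that is never negative and whose scaling is not stated; the list holds no read totals and no value per library. Row names and empty columns were not used.

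Midpoints were placed 70 bp after the 0-based start of each deposited interval, and all coordinates here are 1-based. Genes are canonical transcripts of GENCODE release 44 (the methods of the study name release 48). The transcripts, and not the whole gene records, bounded the clusters, because readthrough transcripts lengthen several records. Windows were non-overlapping tiles of the length of the cluster on its chromosome, with GC within 2 percentage points and under 5% unsequenced bases. The spread is the SD over windows with at least 80% unique bases, a choice made after the data were seen, because near-empty windows inflated the SD over all windows. The spread of a ratio or difference between clusters combines both. The spacing and score functions were tested on simulated data. Sequences came from RefSeq (GRCh38.p14 promoters) and the GRCh38 reference. Python 3.11.15, NumPy 2.4.6, pandas 2.3.3, Numba 0.67.0, Biopython 1.88 and matplotlib 3.10.9 were used.

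The listed genes, the other globin genes and pseudogenes, and the genes of the flanks were named, with the positions over each listed gene, the extreme scores and the widest distances. Members and lists were chosen with earlier results of these data known. Since 1 pooled list has no replicates, all comparisons are descriptions without a p-value. The alternatives were other flanks, whole gene records, higher-scoring positions, unique bases, means, and other sets of windows.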

Additional observations from a re-analysis of the deposited data

How the results depend on the processing

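Of 84 values for 9 results under 11 alternatives, 65 did not reverse and differed from the reported value by less than the spread. Of these, 60 kept their direction and 5, all of the beta cluster against its windows, became 0. Another 14 moved farther and 5 reversed. Among the reversed values, a density ratio of 0.964 and spacing differences of 7.5 and 5 bp lay within the spread of the reported values. Without flanks the density ratio of alpha to beta was 0.823 and the median spacing of the alpha cluster was 7.5 bp above that of the beta cluster, both reversed. Against windows, the alpha density difference was then -2.01 per kb and the spacing difference 27.5 bp. Without flanks and at unique bases alone, an alternative chosen after seeing the data, the density ratio was 0.964 and the spacing difference 5 bp, both reversed, and the alpha differences from windows were -1.31 per kb and 25 bp. With flanks of 50 kb these alpha differences were -0.56 per kb and 0 bp. With only the positions at or above the median score of the list, the density ratio was 1.74, the spacing difference -150.0 bp and the score difference 3.70, while the alpha score difference from windows was 0 and the beta spacing difference 50.0 bp. At unique bases the alpha density difference was -0.44 per kb. With means, the alpha spacing difference from windows was 38.7 bp. With windows matched also on unique bases, an alternative chosen after seeing the data that left 3 windows for the alpha cluster, the alpha density difference was -0.17 per kb and the score difference reversed to 1.23. No paired analysis was possible because the pooled list carries no value per sample. The results rest on 1 line and 1 list, and the depth behind each position is unknown, so sparse stretches and unplaced reads cannot be told apart.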
